A study of Rattus norvegicus with 7 samples.

Results

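The mRNAs described here encode the proteins of the cytosolic ribosome. They were chosen by platform symbol alone, as *Rpl*, *Rps* or *Rplp* with a number and an optional letter a, l or x, together with *Rpsa*. The symbols gave 62 genes on 63 probes, 39 of the large subunit and 23 of the small subunit, and 13 genes with similar symbols, such as the S6 kinases, were left out. Ribosomal protein genes under other symbols were not counted. *Rgd1559566*, a large subunit gene that the paper measured by RT-qPCR in its TRF2-S precipitates, does not match the rule under that symbol. A detection p-value under 0.02 on at least 2 of the 7 arrays kept 56 genes, 34 large and 22 small, of 6592 named genes on 9187 probes tested (22523 on the array). *Rps9* had a pair of probes and each other gene had 1, so that the brightest probe stands for the gene. The 6 genes that were not kept lay at array background, with intensities of 61.1 to 112.8 on every array. *Rpl11*, *Rpl12*, *Rpl34* and *Rpl36a* were detected on 0 arrays, and *Rpl5* and *Rps19* on 1. *Rplp2*, just inside the limit, was detected on 2 arrays at intensities of 79.5 to 115.1. *Rps27a* had no probe under that symbol.

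TRF2-S is the short, RNA-binding form of the telomere protein TRF2, and the study asked which mRNAs it carries in neurons. All arrays came from cerebral cortical neurons of Sprague-Dawley rat embryos at day 18, grown for 9 days in culture, lysed and incubated with protein-A beads. The beads carried either a polyclonal antibody to TRF2-S (TRF2-S RIP, 2 arrays, TRF2-1 and TRF2-2) or rabbit IgG (IgG RIP, 5 arrays, IgG1, IgG2, IgG3, IgG3_0 and IgG3_1x), and the RNA on them was hybridized to Illumina rat Ref-12 BeadChips. The labels number all 5 IgG arrays as replicates. They do not say what the endings of the last names stand for, nor whether the 3 arrays named IgG3 hold separate RNA. No total RNA of the lysate was measured, so each value is a signal on antibody beads relative to IgG beads. Values are log2 intensities transformed to Z-scores per array and put back on a common log2 scale, unless quantile normalization is named.

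The cytosolic ribosome has a small subunit, which reads the mRNA, and a large subunit, which joins amino acids and passes the growing chain through an exit tunnel. Each subunit holds a fixed set of proteins, most of them present in 1 copy, and their mRNAs are among the most abundant in a growing cell. In vertebrates most of these mRNAs start with a pyrimidine run at the cap, the 5′ terminal oligopyrimidine (TOP) tract, through which their translation follows nutrient and growth signals. In neurons they are known from axons and dendrites as well as the soma.

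RefSeq start windows of 30 bases (15 before and 15 after the annotated start, build GRCr8) were found for 46 of the 56 genes. They are shown because the TOP tract is the sequence feature that these mRNAs share. The letters CTTTC or CTTCC, which can overlap by the C they share, stood in 27 of 46 windows (58.7%) on the gene's strand, against 9.33% of all 33468 start windows, and on the opposite strand in 1 of 46 (2.17%, against 10.2%). Large subunit windows held them in 15 of 27 and small subunit windows in 12 of 19. Capitals mark these letters, which were picked after the windows had been read. The lines give the mRNAs on which the results below turn.
Rps12: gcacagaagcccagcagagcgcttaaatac
Rpl13a: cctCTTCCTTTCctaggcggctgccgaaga
Rpl35: cgcccCTTCCtCTTTCtctcgaaccgggcg
Rpl10: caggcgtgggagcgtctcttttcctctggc
Rpl22: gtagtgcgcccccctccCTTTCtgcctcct
Rps6: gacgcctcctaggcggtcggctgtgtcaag
Rps26: gagagccgccgggtcctCTTTCgagtcttg
Rplp1: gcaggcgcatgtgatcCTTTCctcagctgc
Rplp0: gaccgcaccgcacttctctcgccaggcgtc
Rpsa: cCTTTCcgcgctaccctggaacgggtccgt

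The windows of *Rps12* (chr1:23500060-23500089), *Rpl10* (chrX:157205835-157205864), *Rpl22* (chr5:168117946-168117975) and *Rpsa* (chr8:128728864-128728893) lie on the plus strand. Those of *Rpl13a* (chr1:104748899-104748928), *Rpl35* (chr3:43165907-43165936), *Rps6* (chr5:106420526-106420555), *Rps26* (chr7:1643390-1643419), *Rplp1* (chr8:71290858-71290887) and *Rplp0* (chr12:46718376-46718405) lie on the minus strand. Each holds the last bases of the promoter and the first bases of the 5′ untranslated exon as annotated. The 27 mRNAs with the letters had a median log2 difference of 0.20 between TRF2-S and the arrays IgG1 and IgG2, and the 19 without them had 0.01. After quantile normalization the medians were 0.11 and 0.03. The letters do not separate mRNAs with a pyrimidine run from those without, since windows lacking them, such as that of *Rpl10*, also hold such runs. Whether the difference goes with the TOP tract was not tested. *Rps12*, with the highest difference of the small subunit, had no such letters in its window, and *Rpsa*, with the lowest, had them.

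Ribosomal protein mRNAs gave some of the brightest signals in every precipitate, with IgG as with TRF2-S. Between 47 and 50 of the 56 lay among the 919 brightest tested probes on each array. Their median intensity was 2143 on IgG1, 2930 on IgG2, 2397 on TRF2-1 and 3983 on TRF2-2. It was 15350 on IgG3, 6443 on IgG3_0 and 13570 on IgG3_1x, above every other array. *Rplp0*, the base of the stalk that recruits elongation factors, was the brightest by its mean over the 7 arrays, with intensities of 16604 to 32229. Markers of neurons were detected in the precipitates too, 10 of 11 with a probe on all 7 arrays, and their mean level was 9.38 to 9.42 in TRF2-S, 9.28 to 9.40 on IgG1 and IgG2, and 9.63 to 9.93 on the IgG3-named arrays. Of the astrocyte markers 5 of 7 were detected on all arrays (mean level 9.25 to 9.28 in TRF2-S, 9.27 to 9.48 on IgG1 and IgG2, 9.01 to 9.16 on the IgG3-named arrays). The oligodendrocyte lineage gene *Olig1* was detected on all 7 arrays (12.75 and 12.35 in TRF2-S, 13.14 and 12.90 on IgG1 and IgG2, 11.38 to 12.09 on the IgG3-named arrays), while *Olig2*, *Mog* and *Mag* were detected on 0, and the 6 markers of this lineage with a probe had a mean level of 7.48 to 7.54 in TRF2-S, 7.58 to 7.64 on IgG1 and IgG2, and 7.32 to 7.46 on the IgG3-named arrays. In the same lineage *Sox10* was detected on 6 arrays and *Mbp* on 2. Of the microglial markers with a probe, *Aif1* was detected on 6 arrays, at levels of 6.58 to 7.1, and *Cx3cr1*, *Itgam* and *Ptprc* on 0. The erythroid markers *Hbb* and *Alas2* were detected on 0 arrays. The part of cell makeup in the results was not tested.

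The 3 arrays named IgG3 stood apart before any comparison. Over the tested probes the correlation of log2 values between IgG3 and IgG3_1x was 0.999 and that between IgG1 and IgG2 0.991, whereas IgG1 correlated at 0.899 to 0.933 with the IgG3-named arrays and at 0.987 and 0.989 with the TRF2-S arrays. The SD of log2 intensity was 1.61 on IgG3 and 1.56 on IgG3_1x, against 0.92 to 1.16 on the other 5 arrays. Each comparison was therefore made with all 5 IgG arrays and again with IgG1 and IgG2.

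Against all 5 IgG arrays, ribosomal protein mRNAs of both subunits lay higher in the TRF2-S RIP by their median, without any passing the test. Of the large subunit 31 of 34 lay above 0, with a median log2 difference of 0.55, and of the small subunit 19 of 22, with a median of 0.68. Over all probes tested 41.3% lay above 0 and the median was -0.07, and the 870 other probes among the 919 brightest had a median of 0.20. With limma over all 9187 probes, 0 members were called at an adjusted p of 0.05, where 0.0327% of all probes were called higher and 0.0% lower. Before adjustment 5 lay higher and 0 lower at p under 0.05, beside 6.06% of all probes in each direction. The methods of the paper name a one-way test at p under 0.05, among other limits. With adjustment at 0.05 this test also called 0 members, and before adjustment 3 members lay under 0.05. The other limits of the methods, such as the Z-test and the z-ratio, were not applied. Both TRF2-S arrays lay above every IgG array for 7 of the 56 (*Rpl13a*, *Rpl23*, *Rpl7*, *Rplp1*, *Rps2*, *Rps20* and *Rps29*), or 12.5%, beside 10.3% of all probes.

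The shift depended on how the arrays were put on one scale. After quantile normalization of the 7 arrays the medians were 0.08 for the large subunit (21 of 34 above 0) and 0.11 for the small subunit (12 of 22), with -0.04 for all probes (44.2% above 0), and 0 members were called (0.0544% of all probes higher, 0.0% lower). Before adjustment 6 members lay higher and 3 lower at p under 0.05, beside 8.21% and 9.64% of all probes. With the median of each array subtracted and its spread left as it was, the medians were -0.62 and -0.59, both below that of all probes (-0.34). The 870 other bright probes had a median of -0.73 there, below the -0.61 of the 56 members, and they also lay below the members as Z-scores (0.20 against 0.64) and as quantiles (0.00 against 0.09). The sign of the members' median against 5 IgG arrays was thus not the same under the 3 scalings, while it lay above the median of these bright probes under each. The other bright probes were dimmer than the members, with a median Z-scaled level of 10.98 against 12.45 on IgG1. On TRF2-1 the levels were 10.95 and 13.04. The list is therefore not matched to the members in signal. The plot of the difference against signal gives the members' values as Z-scores and as quantiles.

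**Figure D1:**
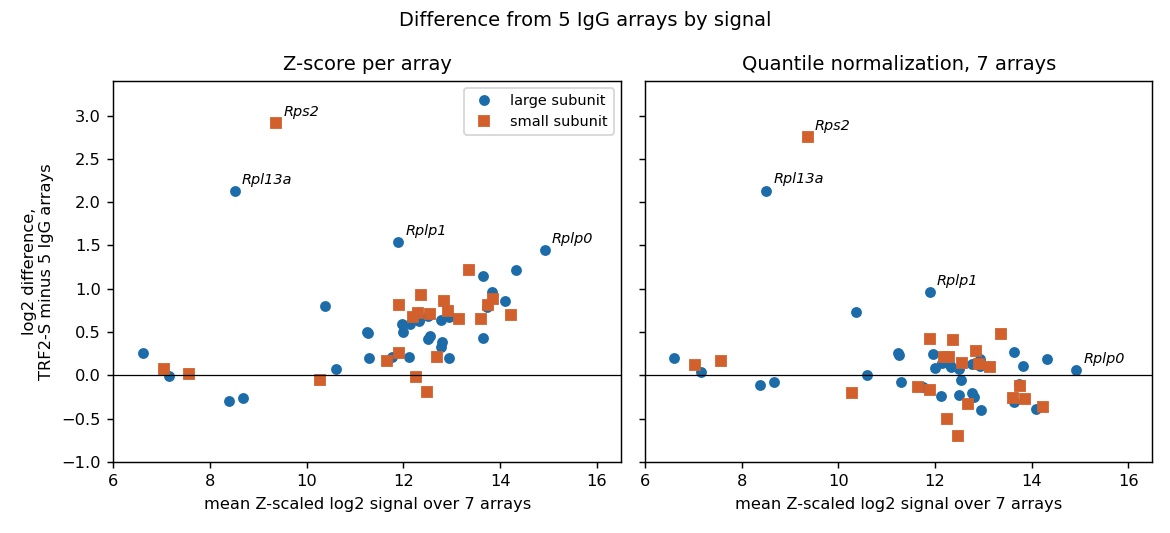
Log2 difference of each ribosomal protein mRNA between 2 TRF2-S and 5 IgG arrays (vertical axis) against its mean Z-scaled log2 signal over 7 arrays (horizontal axis), for Z-scores (left) and quantile normalization (right), with 34 large subunit genes as circles and 22 small subunit genes as squares. The bright genes lie mostly above 0 on the left and on both sides of 0 on the right, while *Rps2* and *Rpl13a* lie above 2 in both.

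*Rps2* and *Rpl13a* had the largest differences against 5 IgG arrays, and both rested on the IgG3-named arrays. *Rps2* encodes a protein at the entry of the mRNA channel of the small subunit. Its Z-scaled log2 signal was 11.25 on IgG1, 11.08 on IgG2, 6.79, 6.79 and 6.78 on IgG3, IgG3_0 and IgG3_1x, 11.56 on TRF2-1 and 11.35 on TRF2-2. The TRF2-S arrays lay above all others, and the IgG3-named arrays averaged 6.79 where IgG1 and IgG2 averaged 11.16. As intensity, *Rps2* stood at 128.4 to 161.3 on the low arrays and at 1082 to 1924 on the other 4, although the low arrays were the brightest for ribosomal protein mRNAs as a whole. Its log2 difference was 2.92 ± 1.47 (SE, adjusted p = 0.41) against 5 IgG arrays and 0.29 ± 0.13 (adjusted p = 0.41) against IgG1 and IgG2.

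*Rpl13a*, a large subunit protein that in human cells also leaves the ribosome to silence translation of inflammatory mRNAs, had 9.33 on IgG1, 9.35 on IgG2, 7.00, 6.80 and 7.01 on the IgG3-named arrays, 9.95 on TRF2-1 and 10.11 on TRF2-2. The groups did not overlap, whichever IgG arrays were taken. The log2 difference was 2.13 ± 0.81 (adjusted p = 0.41) against 5 IgG arrays and 0.69 ± 0.11 (adjusted p = 0.09) against IgG1 and IgG2. After quantile normalization of these 4 arrays it was 0.64 ± 0.09 (adjusted p = 0.00217).

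Against IgG1 and IgG2 alone, 1 ribosomal protein mRNA rose on the Z-score scale, *Rps12*, and the small subunit lay further above 0 than the large subunit. The small subunit had a median log2 difference of 0.27, with 18 of 22 above 0, and the large subunit 0.06, with 20 of 34 above 0, where 51.4% of all probes lay above 0 at a median of 0.01. These medians moved with single arrays. The large subunit had 0.23 without IgG1, -0.08 without IgG2, -0.05 without TRF2-1 and 0.33 without TRF2-2, and the small subunit had 0.36, 0.14, 0.02 and 0.52. The call made 1 higher and 0 lower of 56 members, beside 0.142% of all probes called higher and 0.0109% lower. Before adjustment 10 lay higher and 0 lower at p under 0.05 (17.9% of the members, beside 6.51% and 6.02% of all probes). Of the 870 other bright probes 11.1% lay higher and 17.0% lower. Both TRF2-S arrays lay above both IgG arrays for 18 of 56 members (32.1%) and below them for 1, *Rpl24* (beside 22.5% and 19.4% of all probes). The shares of the other bright probes were 19.8% and 31.6%. The 18 comprised 8 of 34 large and 10 of 22 small subunit members.

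*Rps12* encodes a protein of the head of the small subunit. Its signal was 9.21 on IgG1, 9.24 on IgG2, 10.85, 11.27 and 10.92 on the IgG3-named arrays, 10.32 on TRF2-1 and 10.16 on TRF2-2. The TRF2-S arrays lay above IgG1 and IgG2 and below all 3 IgG3-named arrays. The deposited intensities kept this order of the groups, with 340.3 on IgG1, 439.5 on IgG2, 569.6 on TRF2-1, 878.6 on TRF2-2 and 2473 to 6655 on the IgG3-named arrays, although TRF2-2 was here above TRF2-1. The log2 difference against IgG1 and IgG2 was 1.01 ± 0.11, or 2.02-fold (limma, adjusted p = 0.0379), on the Z-score scale, which stretches differences among these arrays. On the quantile scale it was 0.905 ± 0.09, or 1.87-fold (limma, adjusted p = 0.00049). Against 5 IgG arrays the Z-scaled difference was -0.06 ± 0.62 (adjusted p = 0.96). Without TRF2-1 or TRF2-2 the difference against IgG1 and IgG2 was 0.93 or 1.09, and its adjusted p was 0.30 or 0.11. With median centring it was 0.85 (adjusted p = 1.0) and in the one-way test 1.01 (adjusted p = 0.60), and both settings called 0 of all 9187 probes.

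**Figure D2:**
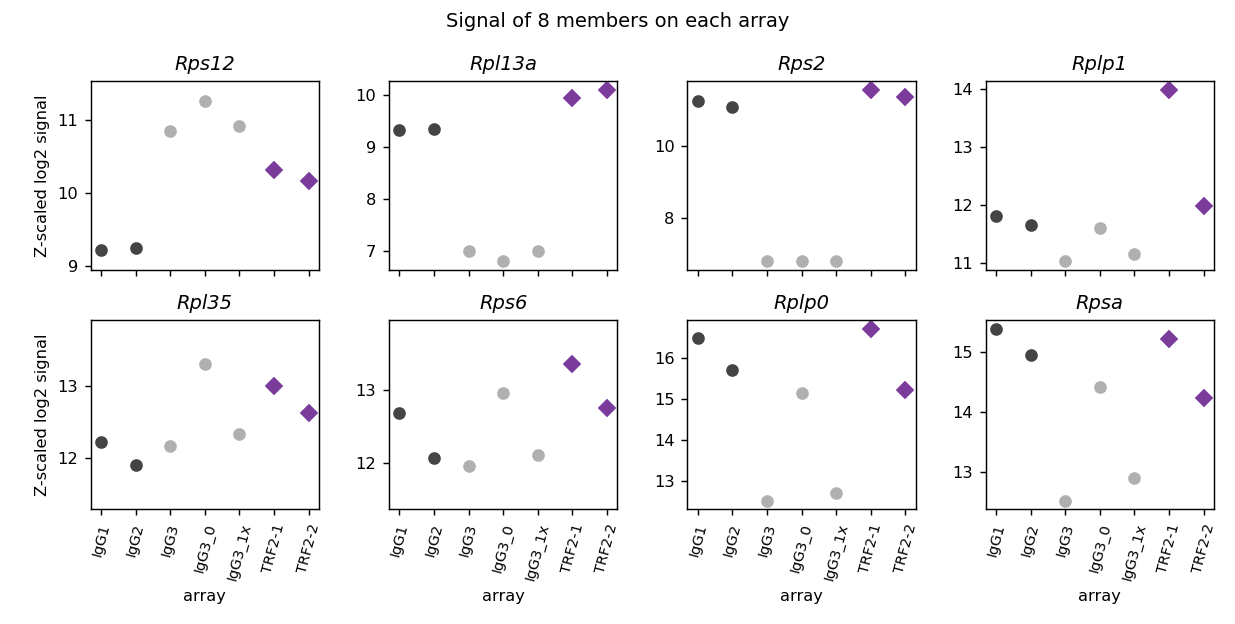
Z-scaled log2 signal (vertical axis, range differing between panels) of 8 ribosomal protein mRNAs on each array, with IgG1 and IgG2 in dark grey, the 3 IgG3-named arrays in light grey and the TRF2-S arrays as diamonds. *Rps2* and *Rpl13a* are lowest and *Rps12* is highest on the IgG3-named arrays, and *Rplp1* is highest on TRF2-1 alone.

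The TRF2-S arrays did not carry the same shift on the Z-score scale. With the average of IgG1 and IgG2 as the base, the large subunit median was 0.33 on TRF2-1, with 29 of 34 members above 0, and -0.05 on TRF2-2, with 16 of 34 above 0. The small subunit median was 0.52 on TRF2-1 (21 of 22) and 0.02 on TRF2-2 (12 of 22). The 870 other bright probes had medians of 0.03 on TRF2-1 (474 above 0) and -0.12 on TRF2-2 (300 above 0). All 9187 probes had -0.03 (4041 above 0) and 0.03 (5313 above 0). TRF2-1 exceeded TRF2-2 by a median of 0.48 for the large and 0.54 for the small subunit, more than the 0.21 and 0.27 by which IgG1 exceeded IgG2. The median of TRF2-1 minus TRF2-2 was 0.11 for the other bright probes, where IgG1 minus IgG2 was also 0.11, and -0.09 for all probes. TRF2-1 also had the lowest SD of log2 intensity, 0.92, beside 1.16 on TRF2-2, 0.995 on IgG1 and 1.10 on IgG2. The part of this spread in the difference was not tested beyond the change of scale that follows.

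After quantile normalization of the 4 arrays, both TRF2-S arrays gave nearly the same medians. For the large subunit these were 0.03 and 0.07 on TRF2-1 and TRF2-2 (18 and 21 of 34 above 0), and for the small subunit 0.18 and 0.16 (17 and 19 of 22). The other bright probes had -0.04 and -0.03 (386 and 400 of 870 above 0), and all probes -0.01 and -0.005 (4320 and 4470 of 9187). The TRF2-S arrays differed from each other by a median of -0.06 and 0.003 for the large and small subunit, and IgG1 from IgG2 by 0.02 and 0.003. The large minus the small subunit median was -0.16 on TRF2-1 and -0.08 on TRF2-2. A gap of the same sign was seen on arrays without the TRF2-S antibody. With all 7 arrays quantile normalized, large minus small was -0.14, -0.24 and -0.23 on IgG3, IgG3_0 and IgG3_1x, each relative to IgG1 and IgG2, beside -0.16 and -0.11 on TRF2-1 and TRF2-2. On the Z-score scale it had the other sign on IgG3 and IgG3_1x (0.31 and 0.16). Members are not replicates, so these medians carry no test.

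**Figure D3:**
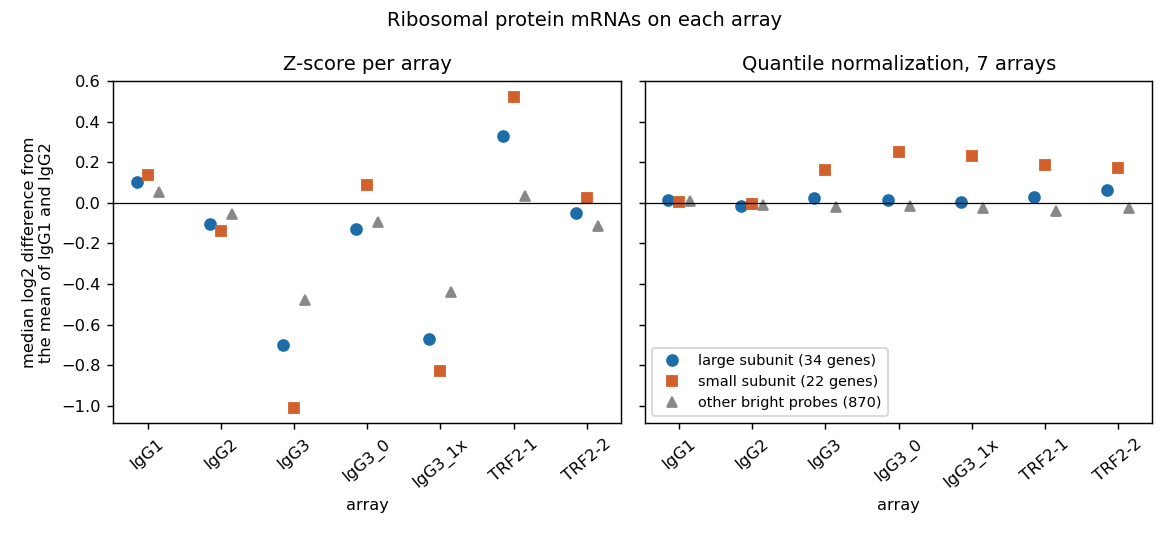
Median log2 difference from the mean of IgG1 and IgG2 (vertical axis) on each of the 7 arrays (horizontal axis), for 34 large subunit genes, 22 small subunit genes and 870 other bright probes, with Z-scores (left) and quantile normalization (right). On the left TRF2-1 lies above TRF2-2 and IgG3 and IgG3_1x lie lowest for both subunits, and on the right the small subunit lies above the large on all 3 IgG3-named and both TRF2-S arrays.

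On the quantile scale more members passed the test against IgG1 and IgG2, in both directions. Of 56, 10 rose (17.9%) and 2 fell (3.57%), beside 3.46% and 2.57% of all probes, and beside 74 and 70 of the 870 other bright probes (8.51% and 8.05%). Before adjustment 16 lay higher and 6 lower at p under 0.05 (beside 9.65% and 10.4% of all probes, and 18.2% and 22.9% of the other bright probes). Both TRF2-S arrays lay above both IgG arrays for 24 members and below them for 10. The shares were 22.7% and 26.1% of all probes, and 29.1% and 36.9% of the other bright probes. Of the 56 differences 38 lay above 0 (beside 48.0% of all probes and 44.9% of the other bright probes). Of the 10, 6 belonged to the large subunit (*Rpl10*, *Rpl13a*, *Rpl22*, *Rpl30*, *Rpl35* and *Rpl7*) and 4 to the small subunit (*Rps12*, *Rps20*, *Rps26* and *Rps6*). The 2 that fell were *Rplp0* and *Rpsa*. Without TRF2-1 the count of members called was 0 (beside 1 higher and 0 lower of all 9187 probes), and without TRF2-2 it was 1, *Rplp1*, which is not among the 12 (beside 3 and 0 of all probes), so that with 1 TRF2-S array the test called almost nothing on the whole array. Without IgG1 it was 13 higher and 3 lower (beside 500 and 522 of all probes), and without IgG2 6 higher and 0 lower (beside 184 and 68). All 12 kept their sign with each of the 4 arrays left out. For each of them both TRF2-S arrays lay on the same side of both IgG arrays, so this outcome was nearly fixed beforehand.

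**Figure D4:**
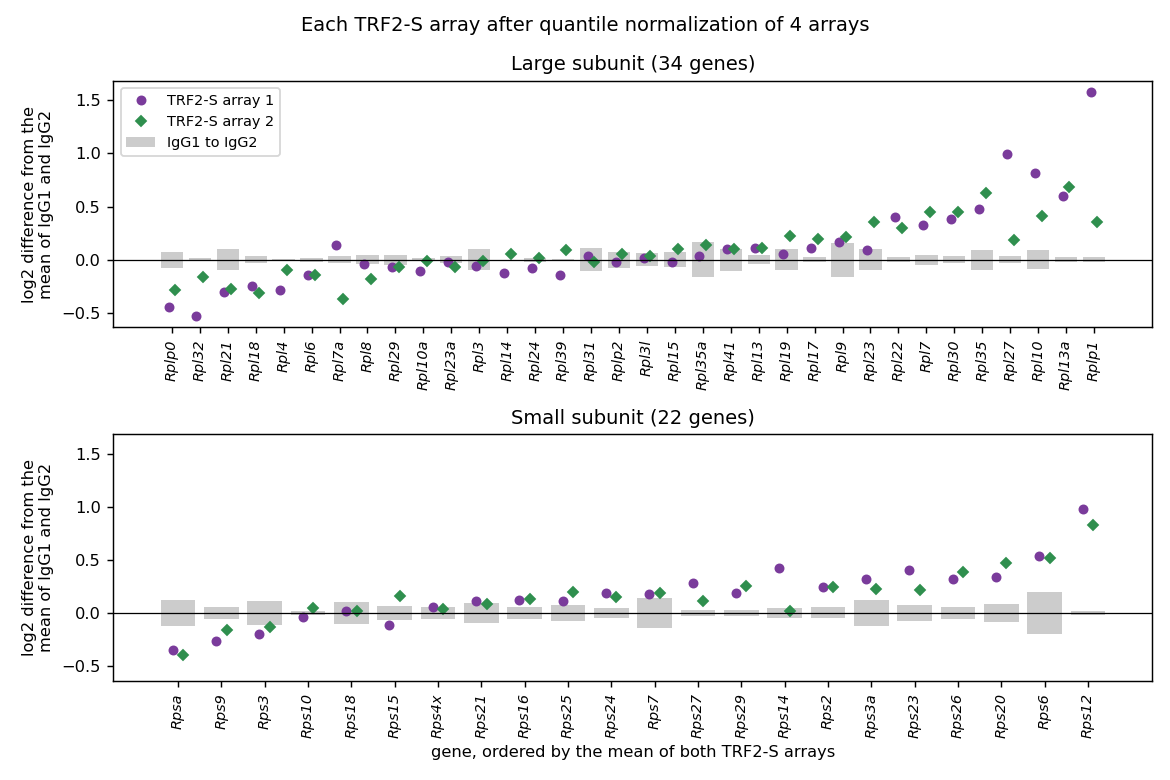
Log2 difference of each ribosomal protein mRNA from the mean of IgG1 and IgG2 on TRF2-1 (circles) and TRF2-2 (diamonds) after quantile normalization of 4 arrays, for the large subunit (top) and the small subunit (bottom), ordered by the mean of both arrays, with grey bars spanning IgG1 to IgG2 centred on their mean. *Rps12* lies near 0.9 on both arrays, and *Rplp0* and *Rpsa* lie below the grey bar on both. *Rplp1* lies above the grey bar on both, at 1.58 on TRF2-1 and 0.35 on TRF2-2.

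Among the proteins of the stalk, which binds the elongation factors, the 3 mRNAs measured did not move together. *Rplp1* had 11.81 on IgG1, 11.66 on IgG2, 11.03, 11.60 and 11.16 on the IgG3-named arrays, 13.99 on TRF2-1 and 11.99 on TRF2-2. TRF2-1 and TRF2-2 exceeded all IgG arrays, but TRF2-1 lay 2.00 log2 units above TRF2-2. Its log2 difference against IgG1 and IgG2 was 1.25 ± 0.54 (adjusted p = 0.41), and 0.97 ± 0.26 (adjusted p = 0.053) after quantile normalization.

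*Rplp0*, to which its partners bind, had 16.47 and 15.70 on IgG1 and IgG2, 12.52, 15.15 and 12.71 on the IgG3-named arrays, 16.71 on TRF2-1 and 15.21 on TRF2-2. As intensity the order of the IgG arrays was the other way, with 21087 and 25458 on IgG1 and IgG2 and 30791, 32229 and 27911 on the IgG3-named arrays. On the Z-score scale the TRF2-S arrays lay on either side of both IgG1 and IgG2, and the difference was -0.13 ± 0.46 (adjusted p = 0.95). After quantile normalization *Rplp0* fell by 0.37 ± 0.10 on the log2 scale (adjusted p = 0.0425), to 0.776-fold. It was the brightest of all probes on IgG2 and on IgG3_0, so its quantile value there is the top of the common distribution. *Rplp2* lay near background on every array (6.36 to 6.83) with a difference of 0.05 ± 0.12.

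Of the proteins around the exit tunnel and its rim, 8 of 9 listed were tested, and 6 lay above 0 against IgG1 and IgG2 (median 0.14; 5 and 0.07 after quantile normalization). *Rpl35*, which sits at the tunnel's mouth near the docking site of targeting factors, had 12.22 and 11.91 on IgG1 and IgG2, 12.16, 13.29 and 12.34 on the IgG3-named arrays, 12.99 on TRF2-1 and 12.62 on TRF2-2. The TRF2-S arrays exceeded all IgG arrays but IgG3_0. The difference was 0.74 ± 0.17 (adjusted p = 0.16) as Z-scores and 0.55 ± 0.10 (adjusted p = 0.00824) on the quantile scale. *Rpl22*, without which mice are viable, had 0.35 ± 0.09 on the quantile scale (adjusted p = 0.0378). *Rpl31*, near the tunnel exit, had 0.01 ± 0.10.

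*Rpl10*, which joins the large subunit late and reaches towards the peptidyl transferase centre, had 12.14 and 12.23 on IgG1 and IgG2, 12.04, 12.97 and 12.16 on the IgG3-named arrays, 13.52 on TRF2-1 and 12.46 on TRF2-2. Both TRF2-S arrays were above IgG1 and IgG2, TRF2-1 by 1.34 and TRF2-2 by 0.27 relative to their mean. The quantile difference was 0.61 ± 0.12 (adjusted p = 0.0161). *Rpl27* had 12.12 and 11.88 on IgG1 and IgG2, 13.55 on TRF2-1 and 12.06 on TRF2-2, so that TRF2-1 was the highest of the 4 and TRF2-2 lay between IgG1 and IgG2. It did not pass (quantile difference 0.59 ± 0.19, adjusted p = 0.0832). *Rpl7* and *Rpl30*, named after their values were seen, rose by 0.39 ± 0.09 (adjusted p = 0.028) and 0.42 ± 0.09 (adjusted p = 0.0178) on the quantile scale, and *Rpl7* was above every IgG array on both TRF2-S arrays (10.91 and 10.96, against 9.82 to 10.53).

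At the other end of the large subunit, *Rpl32*, *Rpl21* and *Rpl18* had the lowest differences on the Z-score scale, -0.38 ± 0.21, -0.23 ± 0.18 and -0.26 ± 0.19 (adjusted p = 0.55, 0.70 and 0.66). On the quantile scale they were -0.35 ± 0.11, -0.29 ± 0.09 and -0.28 ± 0.09 (adjusted p = 0.0917, 0.0917 and 0.0745), none of them called. *Rpl18* had 12.74 and 12.57 on IgG1 and IgG2, 12.67 on TRF2-1 and 12.11 on TRF2-2, and so overlapped IgG on the first array only. *Rpl15* and *Rpl31* were lowest against 5 IgG arrays, with -0.30 ± 0.24 and -0.26 ± 0.18 (adjusted p = 0.49 and 0.44), and stood at 0.03 ± 0.14 and -0.02 ± 0.12 against IgG1 and IgG2. Both were brighter on the IgG3-named arrays (8.41 to 9.01) than on IgG1 and IgG2 (8.12 to 8.59). *Rpl3l*, the muscle paralogue of *Rpl3* and the dimmest member after *Rplp2* and *Rps16* in the IgG arrays, had 0.06 ± 0.12 and was the only paralogue with an l in its symbol to be tested.

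Of the small subunit proteins that line the mRNA channel, 6 of 9 listed were tested and 5 lay above 0 against IgG1 and IgG2 on both scales (median 0.32 as Z-scores and 0.23 as quantiles). *Rps26*, which contacts the mRNA upstream of the start codon, had 11.62 and 11.61 on IgG1 and IgG2, 11.58, 12.52 and 11.79 on the IgG3-named arrays, 12.23 on TRF2-1 and 11.92 on TRF2-2. Both TRF2-S arrays lay above every IgG array but IgG3_0. It rose on the quantile scale by 0.35 ± 0.09 (adjusted p = 0.0367). *Rps14*, on the platform beside the channel, had 14.94 on TRF2-1 and 13.53 on TRF2-2, on either side of IgG1 and IgG2 (14.08 and 13.71), with a quantile difference of 0.22 ± 0.12 (adjusted p = 0.34). *Rps3*, at the channel's entry, was the member of this list below 0, with -0.06 ± 0.16 as Z-scores and -0.17 ± 0.10 as quantiles (adjusted p = 0.93 and 0.37).

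In the head of the small subunit 7 of 10 listed proteins were tested, and 6 lay above 0 as Z-scores (median 0.22) and 7 as quantiles (median 0.15). *Rps20*, also a protein of the head, followed *Rps12* with 12.40 and 12.13 on IgG1 and IgG2, 11.63, 12.54 and 11.74 on the IgG3-named arrays, 13.00 on TRF2-1 and 12.61 on TRF2-2. Both TRF2-S arrays exceeded all 5 IgG arrays. The difference was 0.54 ± 0.17 (adjusted p = 0.26) as Z-scores and 0.41 ± 0.09 (adjusted p = 0.028) as quantiles.

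*Rps6*, the substrate of S6 kinase and a common readout of growth signalling, had 12.69 and 12.06 on IgG1 and IgG2, 11.96, 12.97 and 12.10 on the IgG3-named arrays, 13.37 on TRF2-1 and 12.75 on TRF2-2. Both TRF2-S arrays lay above IgG1 and IgG2, although TRF2-2 exceeded IgG1 by far less than IgG1 exceeded IgG2. It rose on the quantile scale by 0.53 ± 0.12 (adjusted p = 0.0241), and had 0.68 ± 0.26 (adjusted p = 0.34) as Z-scores. *Rpsa*, also known as the laminin receptor precursor, had 15.38 and 14.94 on IgG1 and IgG2, 12.52, 14.42 and 12.89 on the IgG3-named arrays, 15.22 on TRF2-1 and 14.23 on TRF2-2. TRF2-1 lay between IgG1 and IgG2 and TRF2-2 below both. As intensity *Rpsa* was higher on the IgG3-named arrays (30874, 19876 and 32956) than on IgG1 and IgG2 (11363 and 15822). It stood at 7569 on TRF2-1 and 12951 on TRF2-2. *Rpsa* fell by 0.37 ± 0.10 on the log2 scale after quantile normalization (adjusted p = 0.0448). *Rps9* had the second-lowest quantile difference of the small subunit, -0.21 ± 0.09 (adjusted p = 0.21), and its dimmer probe had -0.004.

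The mRNAs of other TOP genes, among them translation factors, gave a comparison with mRNAs of like regulation and lower signal. Of 22 listed symbols, 16 had a tested probe. Against IgG1 and IgG2, 11 of 16 lay above 0 with a median of 0.13, and after quantile normalization 12 with a median of 0.11, where *Eef1b2*, a nucleotide exchange factor of elongation, rose by 0.53 (adjusted p = 0.00593), *Npm1*, a nucleolar chaperone, by 0.63 (adjusted p = 0.0125), and *Eef1d* fell by 0.36 on the log2 scale (adjusted p = 0.0453). Against 5 IgG arrays their median was 0.03, beside 0.64 for the ribosomal proteins, and as quantiles -0.20 beside 0.09. *Npm1* resembled *Rps2* and *Rpl13a* in its order of arrays, with 8.95 and 8.73 on IgG1 and IgG2, 6.53, 6.40 and 6.50 on the IgG3-named arrays, and 9.26 and 9.76 on TRF2-S. The 57 mitochondrial ribosomal protein mRNAs, dimmer and not regulated by TOP tracts, had a median of 0.02 with 5 IgG arrays as the control and -0.05 with IgG1 and IgG2. As quantiles the first became 0.12, with 45 of 57 above 0, beside 0.09 and 33 of 56 for the cytosolic members, and the second -0.03.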

How the data were processed

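RNA on TRF2-S (2 arrays) or IgG beads (5 arrays) was hybridized to Illumina rat Ref-12 BeadChips in 1 colour. The authors deposited linear signal intensities, which were not normalized between arrays, from BeadStudio 1.5 per the methods or GenomeStudio 2011.1 per the submitters' processing notes. With each intensity came a deposited detection p-value against the array's negative control beads. The authors also deposited a score, the Z-score of the log intensity, which matched the transformation below to within 5e-10 (array medians -0.474 to -0.378, higher being brighter, base of the log unknown).

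Log2 intensities were Z-scored per array and returned to log2 units by a mean of 6.98 and an SD of 1.21 shared by the 7 arrays, with no background subtraction, which understates changes of dim probes. The test, limma 3.58.1 under R 4.3.3 (lmFit, eBayes, Benjamini-Hochberg over all probes tested, threshold 0.05), took the 9187 of 22523 probes whose detection p-value was under 0.02 on at least 2 arrays, and was tested on simulated data. Other settings were quantile normalization, median centring, neqc, no detection filter, the methods' one-way test between groups, averaging of the IgG3-named arrays, a common SD of 4 arrays, the mean of a gene's probes, a replicate block, and leaving out each array. The one-way test was adjusted in the same way as limma, and the other limits of the paper's methods were not applied. Leaving out arrays after quantile normalization was added after seeing the data. The ± values are standard errors of limma's difference. The SD of 1.21 lies above that of the 4 arrays compared without IgG3, so Z-scaled differences among these are stretched.

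Members, lists and tests were chosen with earlier results of these data known. The genes named were every member called, the 4 highest and 3 lowest of each subunit against IgG1 and IgG2, the 2 highest and 2 lowest against 5 IgG arrays, and the stalk, 5S particle, *Rps6*, *Rpsa* and *Rps27a*. Others, such as *Rpl7*, *Rpl22*, *Rpl30* and *Rpl24*, were named after their values were seen. Gene names came from the platform annotation, which can be old. Ribosomal protein genes have many processed pseudogenes, so that a probe may also bind near-identical transcripts. Nothing in the labels says that arrays of a group came from separate cultures, and p-values measure only the spread between these arrays, which may be technical. The number of arrays limits the precision. No slide or scan batch was given in the sources used here.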

Additional observations from a re-analysis of the deposited data

Results flagged for a closer look

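In the group of 5 IgG arrays, the Z-scaled log2 signal of 3 named members had its highest array far from the other 4, by a gap that took up more of the group's range than Dixon's 95% limit allows. The gap was 0.795 of the range for *Rpl10*, 0.734 for *Rpl27* and 0.775 for *Rps26*, and in each the high array was IgG3_0, at 12.97, 12.85 and 12.52. The limit was applied to 21 named members, and chance alone passes it in about 1 in 20 groups.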

How the results depend on the processing

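Against 5 IgG arrays the count of members called was 0 under every alternative run. The medians of the large and small subunit moved to 0.083 and 0.107 with quantile normalization, 0.088 and 0.095 with neqc, and -0.62 and -0.59 with median centring. They were 0.31 to 0.78 and 0.32 to 1.00 with each array left out. On each TRF2-S array relative to IgG1 and IgG2, median centring gave -0.32 on TRF2-1 and 0.37 on TRF2-2 for the large subunit, and -0.20 and 0.53 for the small subunit, which stood at 0.18 on TRF2-1 with quantile normalization. With median centring the other bright probes had -0.47 and 0.34, and all probes -0.14 and 0.15. The cause was not tested.

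Against IgG1 and IgG2 the count of members called, 1, became 12 with quantile normalization, 2 with neqc, 0 with median centring and 0 in the one-way test. It ranged from 0 to 16 with an array left out, 0 to 7 as Z-scores (7 without IgG1, 0 without either TRF2-S array) and 0 to 16 as quantiles (16 without IgG1, 6 without IgG2, 0 without TRF2-1, 1 without TRF2-2). Over all probes, calls higher and lower without IgG1, IgG2, TRF2-1 and TRF2-2 were 136 and 162, 41 and 5, 0 and 0, and 0 and 0 as Z-scores, and 500 and 522, 184 and 68, 1 and 0, and 3 and 0 as quantiles. A group left with 1 array was taken to vary like the other group. Over all probes the calls were 13 higher and 1 lower as Z-scores, 318 and 236 with quantile normalization, 82 and 20 with neqc, and 338 and 310 with the replicate block. The arrays paired in the block share only a number. Over the tested probes the deviations of IgG1 and TRF2-1 from their group means correlated at 0.278. With 2 arrays per group, IgG2 and TRF2-2 mirror these and add nothing. With the replicate block the count of members called was 14.

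Single members reversed without passing the test on the reversed side. Against 5 IgG arrays median centring gave *Rpl10* -0.65, *Rpl18* -0.47, *Rpl21* -0.91, *Rpl27* -0.65, *Rpl32* -0.92, *Rpl35* -0.86, *Rplp0* -0.14, *Rps14* -0.19, *Rps20* -0.50, *Rps26* -0.89, *Rps3* -1.01, *Rps6* -0.59 and *Rpsa* -0.77. Quantile normalization and neqc gave *Rpl21* -0.21 and -0.22, *Rpl32* -0.31 and -0.26, *Rpl35* -0.22 and -0.20, *Rps26* -0.17 and -0.18, *Rps3* -0.34 and -0.34, and *Rpsa* -0.36 and -0.31. *Rps12* was 0.42 with the IgG3-named arrays averaged and -0.33 to 0.18 with arrays left out, where *Rpl27* ranged from -0.08 to 1.40 and *Rps3* from -0.019 to 0.445. Against IgG1 and IgG2, *Rpl31* was 0.008 with quantile normalization and 0.011 with neqc. With arrays left out *Rpl15* ranged from -0.15 to 0.21, *Rpl18* from -0.539 to 0.016, *Rpl21* from -0.504 to 0.047, *Rpl31* from -0.098 to 0.067, *Rplp0* from -0.88 to 0.62, *Rplp2* from -0.031 to 0.131, *Rps14* from -0.36 to 1.05, *Rps3* from -0.30 to 0.17 and *Rpsa* from -0.93 to 0.056. Of the other values for single members, 433 kept their direction and side of the threshold, 22 passed it anew and 4, all of *Rps12*, no longer passed.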
